A study of Mus musculus with 12 samples.

Results

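Expression of the glucocorticoid receptor and of genes known as its targets in liver was followed through polymicrobial sepsis in 8 genes, selected by symbol from the 25611 genes of the deposited count table: Nr3c1, Hsd11b1, Fkbp5, Tsc22d3, Sgk1, Zbtb16, Dusp1 and Klf9. All 8 were measured in each of 12 livers. The livers came from male C57BL/6J mice of 8 to 10 weeks in 3 groups of 4: sham-operated animals, animals put through cecal ligation and puncture (CLP), and animals that after CLP were injected with dichloroacetate (DCA), an inhibitor of pyruvate dehydrogenase kinases, at 25 mg/kg (CLP+DCA). DCA was given 24 hr post-surgery, and all livers were taken 30 hr post-surgery, 6 hr after the injection. In CLP the cecum is tied off and punctured so that gut bacteria reach the peritoneum. Every animal, sham mice included, also received saline under the skin. Whether the sham and CLP mice were injected at 24 hr, and with what, is not given in the sources used here. No mutation or transgene is named for any group.

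Glucocorticoids reach the liver as cortisol or corticosterone, or are made there from an inactive 11-keto form by the enzyme encoded by Hsd11b1. The receptor, encoded by Nr3c1, waits in the cytoplasm with heat shock proteins, enters the nucleus once the hormone is bound and acts on target genes at glucocorticoid response elements (GREs) or through other transcription factors. In liver it is known for raising gluconeogenesis and for restraining inflammation, and part of its targets, such as Fkbp5, feed back on the receptor itself.

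For 6 of the 8 genes, promoter windows of 300 bases (250 before the start of transcription and 50 after it) were taken from RefSeq (build GRCm38.p6, the mm10 assembly). These were 13 windows in all because Sgk1 has 6 starts and Tsc22d3 has 3. Zbtb16 had no window there, and Nr3c1 was left out of this search. Each window was searched on both strands for the GRE hexamer TGTTCT, the complete GRE palindrome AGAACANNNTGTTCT, its core ACANNNTGT and the cyclic AMP response element (CRE) TGACGTCA. The palindrome contains 2 hexamers and the core, so that these matches overlap. The complete palindrome occurred in 1 Sgk1 window, at positions -189 to -175 from the start, and is held by 3 of 32841 promoter windows of the genome table (0.00913%). At least 1 hexamer occurred in 3 Sgk1 windows and 1 Tsc22d3 window, against 19% of all windows, and the core in 2 Sgk1 windows, against 6.85%. The CRE, a motif of promoters that respond to cyclic AMP, occurred in the Dusp1 window at -143 to -136 and is held by 1.79% of all windows. None of these letters was found in the windows of Hsd11b1, Fkbp5 or Klf9. Bases outside the windows and sites with other letters were not searched, so that this does not show a lack of GREs. The Hsd11b1 window lies inside the span of the gene, and all 250 of its bases before the start are annotated as exon. A match describes the sequence only and is not a measured binding site.

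The exon-free bases before the start are printed here for the Sgk1 window with the palindrome, for Dusp1 and Fkbp5, the genes with the largest differences between septic groups and between CLP and sham, and for the Tsc22d3 start with a hexamer; capitals mark the motif matches. Sgk1 is given from chr10:21993640-21993889 on the plus strand, Dusp1 from chr17:26508520-26508722, Fkbp5 from chr17:28486150-28486399 and Tsc22d3 from chrX:140600660-140600772, the last 3 on the minus strand.
Sgk1: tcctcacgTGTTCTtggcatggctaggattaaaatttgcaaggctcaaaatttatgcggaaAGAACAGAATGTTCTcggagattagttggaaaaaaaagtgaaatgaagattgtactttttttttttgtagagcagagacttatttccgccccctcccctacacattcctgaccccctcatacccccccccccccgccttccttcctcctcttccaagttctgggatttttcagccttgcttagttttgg
Dusp1: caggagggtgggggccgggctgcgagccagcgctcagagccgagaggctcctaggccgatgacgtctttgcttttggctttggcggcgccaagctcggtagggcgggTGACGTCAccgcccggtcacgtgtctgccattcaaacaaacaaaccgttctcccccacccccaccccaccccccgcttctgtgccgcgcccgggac
Tsc22d3: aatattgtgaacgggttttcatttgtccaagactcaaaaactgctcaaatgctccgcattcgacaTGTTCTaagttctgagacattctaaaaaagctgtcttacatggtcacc
Fkbp5: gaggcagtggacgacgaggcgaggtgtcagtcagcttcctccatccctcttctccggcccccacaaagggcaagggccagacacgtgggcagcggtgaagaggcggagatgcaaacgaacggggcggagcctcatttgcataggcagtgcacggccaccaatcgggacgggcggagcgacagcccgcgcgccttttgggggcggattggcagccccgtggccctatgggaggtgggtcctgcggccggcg

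**Figure D1:**
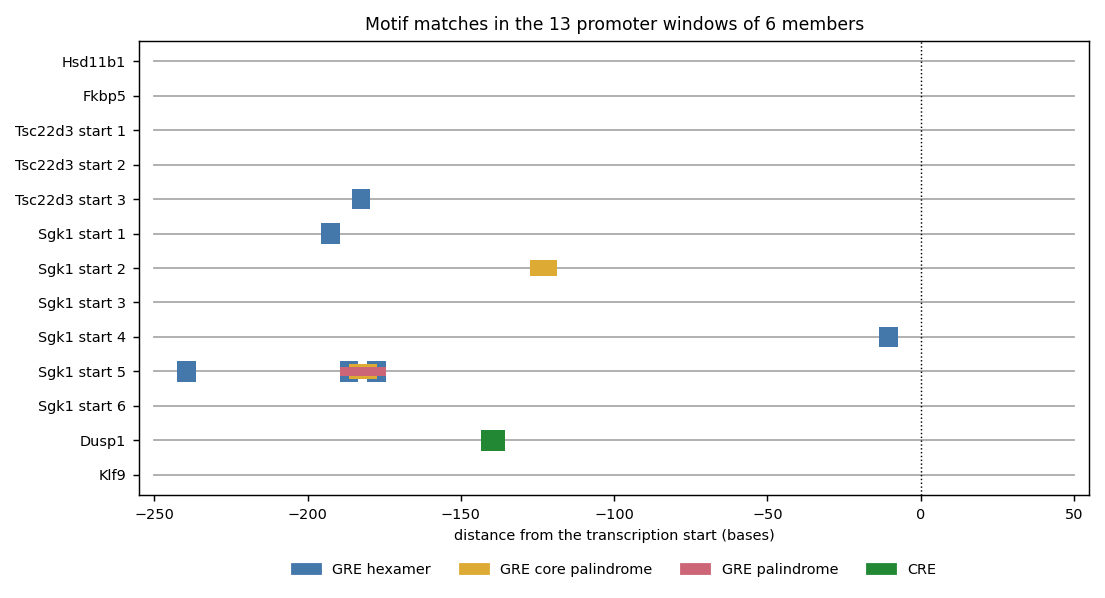
Motif matches on either strand in the 13 promoter windows, drawn by distance in bases from the start of transcription (dotted line); colours mark the GRE hexamer, its core, the complete palindrome and the CRE. The complete palindrome was in 1 Sgk1 window, and the CRE in the Dusp1 window.

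Gene counts summed to 24436513 to 44266819 reads in a mouse, and the 8 genes had from 180 (Dusp1) to 13512 (Hsd11b1) reads in a mouse. Values are given as CPM, reads scaled to a common library size of 1000000, on library sizes normalized by the trimmed mean of M-values. CLP+DCA replicate 3 stood apart: the mean correlation of its log2 CPM with the other mice of its group was 0.926, against 0.965 to 0.990 for the other 11 mice, and with the sham mice 0.910, against 0.982 to 0.988 for the other CLP+DCA mice. Its mean correlation with the CLP mice, 0.959, was close to those of its group, 0.961 to 0.965. Fitted values and counts that involve CLP+DCA are therefore also given without this mouse. It was singled out after the data were seen, as the CLP+DCA mouse farthest from sham. Adjusted p-values without it are conditional on that choice and are no independent evidence of a difference. Hepatocyte marker genes were abundant in every liver, summing to 88012 to 110089 CPM among sham mice, 73495 to 90893 among CLP mice and 76962 to 86747 among CLP+DCA mice, and none of the 10 was at 0. The summed level of 10 neutrophil markers was 6.39 to 9.11 CPM for sham, 30.7 to 41.9 for CLP and 6.54 to 54.4 for CLP+DCA, with up to 2 of these markers at 0 in a mouse. The highest of these values was from replicate 3, and the other 3 CLP+DCA mice had 6.54 to 13.8. Markers of stellate cells and cholangiocytes summed to 75.4 to 115 CPM for sham, 131 to 405 for CLP and 91.8 to 288 for CLP+DCA, with none of 10 at 0, and here too replicate 3 was the highest, the other 3 mice lying at 91.8 to 99.0, within the sham range. Lymphocyte markers were low in every liver, at 2.75 to 5.5 CPM for sham, 0.673 to 2.30 for CLP and 0.974 to 3.45 for CLP+DCA, so that sham and CLP did not overlap. Replicate 3 had the lowest lymphocyte sum of its group, the other 3 mice having 2.35 to 3.45, and up to 5 of these markers were at 0 in a mouse. The sums of Kupffer cell and endothelium markers overlapped between all groups. These shifts accompany the group differences described here, and their part in the results was not tested. In whole liver, fewer cells of a type and less RNA per cell cannot be told apart.

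Of the 8 genes, 3 were differentially expressed genes (DEGs) in CLP versus sham at a false discovery rate (FDR) of 0.05 in edgeR's quasi-likelihood test, where 3.46% of the 13190 genes tested were called. Fkbp5 and Zbtb16 rose in CLP, where 2.02% of all genes were called higher, and Dusp1 fell, where 1.43% were called lower, and 6 of the 8 had an unadjusted p under 0.05, as did 29.4% of all genes. In CLP+DCA versus sham none of the 8 was called, against 0.0379% of all genes, and 3 had an unadjusted p under 0.05, as did 13.4% of all genes. None was called in CLP+DCA versus CLP either, against 0.00758% of all genes, and 3 had an unadjusted p under 0.05, as did 10.5% of all genes. In DESeq2 on all 12 mice, 5, 2 and 1 of the 8 genes were called in the respective comparisons, beside 13.0%, 1.83% and 0.815% of the genes that it tested. Without CLP+DCA replicate 3, 5 of the 8 were DEGs in CLP versus sham (24.4% of 13288 genes), 0 in CLP+DCA versus sham (0.0828%) and 3 in CLP+DCA versus CLP (4.99%). All 8 passed the filter on low counts.

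**Figure D2:**
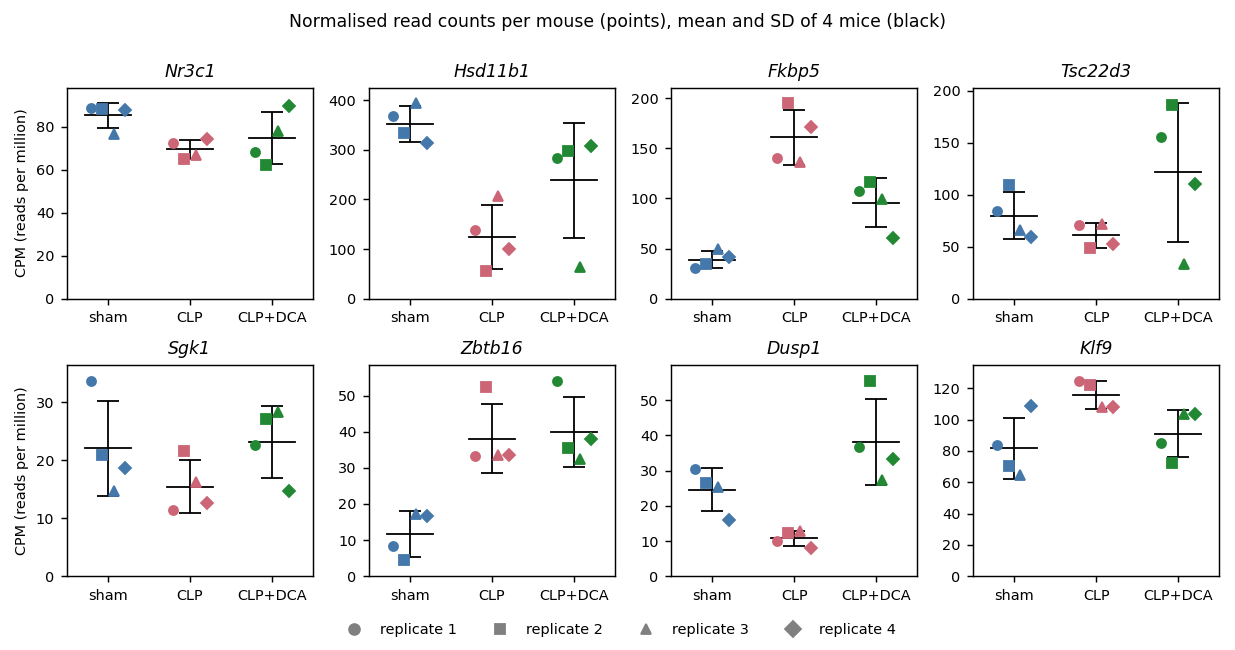
Normalised read counts (CPM, linear axis from 0) of the 8 genes in each mouse, with the mean and SD of each group of 4 in black and marker shapes for replicate numbers. Fkbp5 rose from 30.2 to 49.7 CPM in sham to 136 to 195 CPM in CLP, and the triangle of CLP+DCA replicate 3 is the lowest of its group for Hsd11b1 and Tsc22d3.

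Nr3c1 encodes the receptor (NCBI Gene 14815, chromosome 18 from 39410545 to 39487245, minus strand, mm10). It was at 88.6, 88.2, 76.8 and 87.7 CPM in the sham mice, at 72.3, 64.9, 67.1 and 74.3 CPM in CLP, and at 68.5, 62.2, 77.9 and 89.9 CPM in CLP+DCA. All CLP mice lay below all sham mice, whereas the CLP+DCA mice spread over both groups. The fitted log2 fold change in CLP versus sham was -0.29 (standard error (SE) 0.11), and with an adjusted p of 0.116 by edgeR the difference did not pass the test. Its 95% interval of -0.54 to -0.05 is not adjusted for the number of genes tested and lies below 0. Without CLP+DCA replicate 3 the adjusted p was 0.0733 by edgeR. The difference was called in 2 of 23 alternative settings, DESeq2 and edgeR on the 8 mice compared. These fits called 3428 and 2473 of all genes. CLP+DCA differed from sham by -0.19 (95% interval -0.44 to 0.05) and from CLP by 0.10 (-0.15 to 0.34) on the log2 scale. Leaving out CLP+DCA replicate 3 gave -0.21 (-0.48 to 0.05) and 0.08 (-0.18 to 0.34). The receptor transcript varied less between mice than the other genes in sham and CLP, with coefficients of variation of 6.69% and 6.32%, and of 16.2% in CLP+DCA (19.8% without replicate 3).

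Hsd11b1 encodes 11β-hydroxysteroid dehydrogenase type 1, which regenerates active glucocorticoid inside hepatocytes (NCBI Gene 15483, chromosome 1 from 193221641 to 193264045, minus strand). Its levels were 367, 334, 394 and 313 CPM in sham, 138, 55.1, 206 and 99.3 CPM in CLP, and 283, 298, 64.9 and 308 CPM in CLP+DCA. Every CLP mouse was below every sham mouse, and 3 of the 4 CLP+DCA mice lay between the groups, with replicate 3 inside the CLP range. In CLP versus sham the log2 fold change was -1.50 (SE 0.46) and did not pass the threshold with all 12 mice (adjusted p = 0.0725 by edgeR). Without CLP+DCA replicate 3, which is not in the contrast but shares its estimate of the spread, the same change of -1.50 had an SE of 0.30 and an adjusted p of 0.00851. CLP+DCA versus CLP gave 0.94 (SE 0.45, adjusted p = 0.498 by edgeR), and without replicate 3 it gave 1.25 with an adjusted p of 0.0498. Of the 12 fits without a single mouse, only that 1 called this difference. The 3 remaining CLP+DCA mice averaged 296 ± 12.5 CPM (SD, n = 3), against 352 ± 35.8 in sham and 125 ± 64.0 in CLP (SD, n = 4 each). CLP+DCA versus sham was -0.56 (adjusted p = 0.573 by edgeR), with a 95% interval from -1.54 to 0.42. It moved to -0.25 (adjusted p = 0.876 by edgeR, interval -0.96 to 0.46) without replicate 3.

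Among the targets, Fkbp5 had the largest difference between CLP and sham. It encodes FKBP51, a co-chaperone that lowers the affinity of the receptor for its hormone (NCBI Gene 14229, chromosome 17 from 28398753 to 28486149, minus strand). It was at 30.2, 34.3, 49.7 and 42.1 CPM in sham, at 141, 195, 136 and 171 CPM in CLP, and at 107, 116, 99.4 and 60.4 CPM in CLP+DCA. The 3 groups did not overlap, and the CLP+DCA mice, replicate 3 included, lay between sham and CLP. Fkbp5 rose 4.12-fold in CLP (log2 fold change 2.04, SE 0.22, adjusted p = 0.00633 by edgeR). It remained called in all 23 alternative settings tried, with log2 fold changes of 1.85 to 2.18. CLP+DCA versus sham gave 1.29 (SE 0.22, adjusted p = 0.0967 by edgeR), and CLP+DCA versus CLP gave -0.75 (SE 0.21, adjusted p = 0.303 by edgeR). Without replicate 3 these were 1.28 (adjusted p = 0.111) and -0.76 (adjusted p = 0.0722) in the same test.

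Zbtb16 encodes the zinc finger transcription factor PLZF, a classical glucocorticoid-induced gene (NCBI Gene 235320, chromosome 9 from 48654297 to 48835945, minus strand). The sham mice had 8.40, 4.53, 17.3 and 16.8 CPM, the CLP mice 33.2, 52.4, 33.4 and 33.4 CPM, and the CLP+DCA mice 54.1, 35.5, 32.5 and 37.9 CPM. Both septic groups lay above all sham mice and overlapped each other. Zbtb16 rose 3.24-fold in CLP (log2 fold change 1.70, SE 0.37, adjusted p = 0.0396 by edgeR). The change in CLP+DCA versus sham was of a similar size, 1.76 (SE 0.37, adjusted p = 0.156 by edgeR), but did not pass the test. CLP+DCA and CLP differed by 0.07 with a 95% interval of -0.71 to 0.85. In the fit without replicate 3 these values were 1.85 (adjusted p = 0.170 by edgeR) versus sham and 0.16 (-0.73 to 1.05) versus CLP. Its call in CLP versus sham was lost in 9 of the 12 fits without a single mouse (adjusted p from 0.0139 to 0.115), and was kept without CLP+DCA replicate 3 (0.0139), CLP+DCA replicate 4 and CLP replicate 3.

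Dusp1 encodes a phosphatase that switches off p38 and JNK kinases and is an anti-inflammatory target of the receptor (NCBI Gene 19252, chromosome 17 from 26505591 to 26508472, minus strand). It was at 30.4, 26.6, 25.4 and 16.0 CPM in sham, at 9.88, 12.4, 12.7 and 8.08 CPM in CLP, and at 36.7, 55.5, 27.3 and 33.2 CPM in CLP+DCA. All CLP mice lay below both other groups, and CLP+DCA overlapped sham in replicate 3 only. In CLP Dusp1 was 2.28-fold lower than in sham, a log2 fold change of -1.19 (SE 0.24, adjusted p = 0.0355 by edgeR). CLP+DCA was 3.54-fold above CLP (log2 fold change 1.82, SE 0.25), the largest difference of the 8 genes between the septic groups. Its adjusted p was 0.0684 with all 12 mice and 0.00673 without replicate 3, where the log2 fold change was 1.95, both from edgeR. Against sham, CLP+DCA was higher by 0.63 (adjusted p = 0.303 by edgeR), or by 0.76 (adjusted p = 0.349) without replicate 3. The call in CLP versus sham was lost without sham replicate 1, 2 or 3, CLP replicate 1, 2 or 4, or CLP+DCA replicate 1, at adjusted p-values of up to 0.0996. The Dusp1 window printed above holds the CRE.

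Tsc22d3 encodes GILZ, a leucine zipper protein that mediates anti-inflammatory effects of glucocorticoids (NCBI Gene 14605, chromosome X from 140539529 to 140600522, minus strand). Its levels were 84.5, 109, 66.1 and 59.5 CPM in sham, 70.8, 49.2, 72.0 and 52.2 CPM in CLP, and 155, 186, 33.0 and 111 CPM in CLP+DCA. Sham and CLP overlapped, and 3 CLP+DCA mice were above all other mice while replicate 3 was below all of them. CLP versus sham gave -0.39 (95% interval -1.27 to 0.49, adjusted p = 0.523 by edgeR). CLP+DCA versus CLP gave 0.99 (SE 0.40, adjusted p = 0.430 by edgeR), and without replicate 3 it gave 1.30 (adjusted p = 0.0187). Of the 12 fits without a single mouse, only that 1 called this difference. CLP+DCA versus sham gave 0.60 (adjusted p = 0.509 by edgeR) with all mice and 0.92 (adjusted p = 0.250) without replicate 3. Without that mouse the CLP+DCA mean was 151 ± 38.0 CPM (SD, n = 3), against 79.9 ± 22.4 in sham and 61.1 ± 12.03 in CLP (SD, n = 4 each).

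Sgk1 encodes a serum- and glucocorticoid-regulated kinase that acts on ion transport (NCBI Gene 20393, chromosome 10 from 21882184 to 21999902, plus strand). It was at 33.7, 20.9, 14.8 and 18.7 CPM in sham, at 11.4, 21.5, 16.2 and 12.7 CPM in CLP, and at 22.7, 27.0, 28.3 and 14.7 CPM in CLP+DCA. The 3 groups overlapped. A Sgk1 window printed above holds the complete palindrome, and no difference passed the test: CLP versus sham was -0.51 (95% interval -1.13 to 0.11), CLP+DCA versus sham 0.07 (-0.54 to 0.69) and CLP+DCA versus CLP 0.58 (-0.04 to 1.20) on the log2 scale. The adjusted p-values were 0.242, 0.914 and 0.499 by edgeR. Without replicate 3 the changes that involve CLP+DCA were -0.04 versus sham and 0.47 versus CLP, both not called.

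Klf9 encodes a Krüppel-like transcription factor induced by glucocorticoids (NCBI Gene 16601, chromosome 19 from 23141226 to 23166911, plus strand). The sham mice had 84.0, 70.2, 64.4 and 108 CPM, the CLP mice 125, 122, 108 and 108 CPM, and the CLP+DCA mice 85.1, 72.4, 103 and 103 CPM. Sham replicate 4 reached the CLP values, and the CLP+DCA mice lay below all CLP mice and within the sham range. CLP versus sham gave 0.50 (SE 0.17, adjusted p = 0.0836 by edgeR), and without CLP+DCA replicate 3 the adjusted p was 0.0407. CLP+DCA versus CLP gave -0.35 (SE 0.17, adjusted p = 0.490 by edgeR), and without replicate 3 -0.41 (adjusted p = 0.144). Against sham CLP+DCA gave 0.16 (95% interval -0.20 to 0.52) with all mice and 0.09 (95% interval -0.29 to 0.46) without replicate 3.

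**Figure D3:**
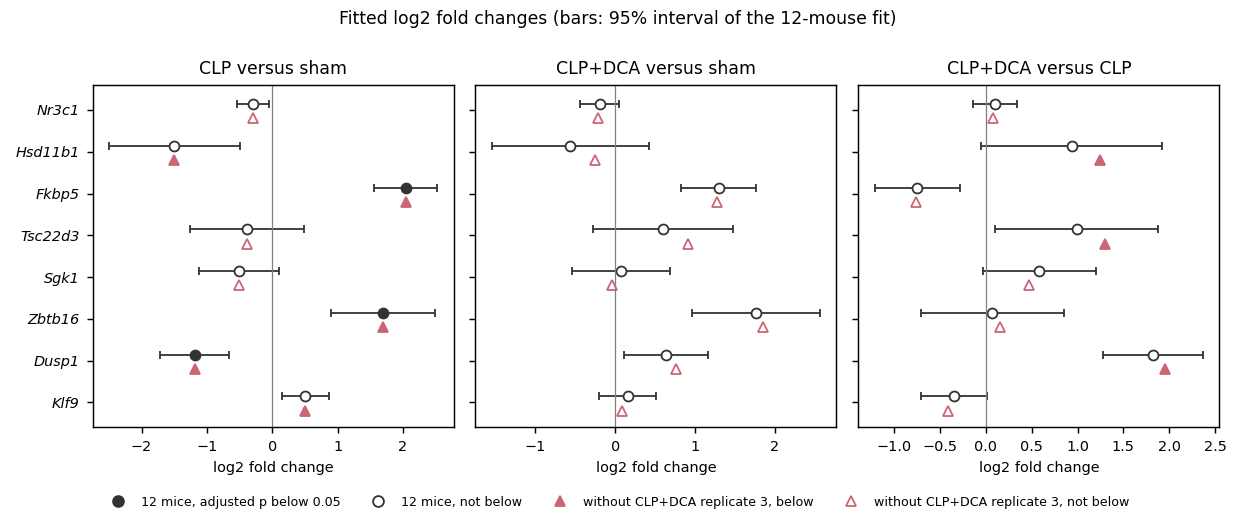
Fitted log2 fold changes of the 8 genes in the 3 comparisons, with 95% intervals from all 12 mice (circles) and the estimates without CLP+DCA replicate 3 (triangles); filled symbols passed an adjusted p of 0.05. With all mice only Fkbp5, Zbtb16 and Dusp1 in CLP versus sham are filled. Without replicate 3, Hsd11b1 and Klf9 are also filled in CLP versus sham, and Dusp1, Tsc22d3 and Hsd11b1 in CLP+DCA versus CLP.

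Counted by mice, CLP and sham did not overlap for 5 of the 8 genes, 2 higher (Fkbp5 and Zbtb16) and 3 lower (Nr3c1, Hsd11b1 and Dusp1) in CLP, where this held for 26.5% of all genes tested, 12.2% higher and 14.2% lower. CLP+DCA and sham did not overlap for 3 genes (Fkbp5 and Zbtb16 higher, Hsd11b1 lower), against 9.76% of all genes, 4.78% higher and 4.97% lower. CLP+DCA and CLP did not overlap for 3 genes (Dusp1 higher, Fkbp5 and Klf9 lower), against 4.37%, 2.32% higher and 2.05% lower. Both counts rested on CLP+DCA replicate 3. Leaving it out, CLP+DCA and sham did not overlap for 5 genes, Tsc22d3 and Dusp1 higher in addition, where this held for 13.3% of all genes, 6.80% higher and 6.47% lower. CLP+DCA and CLP then did not overlap for 5 genes, 3 higher (Hsd11b1, Tsc22d3 and Dusp1) and 2 lower (Fkbp5 and Klf9), against 22.8% of all genes, 12.4% higher and 10.4% lower. The comparisons share groups of mice, so that their values are not independent. Side by side, the median log2 fold change of the 8 genes was -0.34 between CLP and sham, 0.38 between CLP+DCA and sham, and 0.34 between CLP+DCA and CLP, beside 0.02, 0.01 and 0.01 over all genes tested. The medians of the 8 that involve CLP+DCA were 0.43 and 0.31 without replicate 3, beside medians of -0.0026 and -0.0080 over all genes. The 8 genes did not move as a block: in CLP versus sham 3 were higher and 5 lower, between 2.04 for Fkbp5 and -1.50 for Hsd11b1.

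Per kilobase of annotated exon, Hsd11b1 was the most abundant of the 8 transcripts in every group, with mean levels of 187 ± 19.0 CPM per kb for sham, 66.0 ± 33.9 for CLP and 126 ± 61.6 for CLP+DCA (SD, n = 4 each). In sham it was followed by Tsc22d3 (28.8 CPM per kb), Klf9 (18.2), Nr3c1 (13.04), Dusp1 (10.4), Fkbp5 (5.97), Sgk1 (5.43) and Zbtb16 (2.23). The ranges of neighbours in this order overlapped for Tsc22d3 and Klf9, for Nr3c1 and Dusp1, for Dusp1 and Fkbp5, and for Fkbp5 and Sgk1. In CLP the level of Fkbp5 was 24.6 CPM per kb, the third in the order after Klf9 (25.8) and overlapping it and Tsc22d3 (22.03). The receptor transcript itself followed at 10.6, then Zbtb16 (7.21), Dusp1 (4.54) and Sgk1 (3.82), and the ranges of the last 2 overlapped. In CLP+DCA, where the ranges of all neighbours overlapped, Dusp1 (16.1 CPM per kb) was above Fkbp5 (14.7) and Nr3c1 (11.4). Without replicate 3 the order of the 8 genes was the same, with Hsd11b1 at 157 ± 6.65 CPM per kb and Tsc22d3 at 54.4 ± 13.7 (SD, n = 3), and the ranges of Hsd11b1 and Tsc22d3, of Tsc22d3 and Klf9, and of Zbtb16 and Sgk1 no longer overlapped. The annotation behind the counts is not given in the sources used here, so that these levels rest on exon lengths from GENCODE M21.

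Other genes of the pathway were compared in 6 lists. Of 22 further genes known to be induced by glucocorticoids in liver, all of which passed the filter, 3 rose and 1 fell in CLP versus sham, beside the 2.02% and 1.43% of all genes. The fit without CLP+DCA replicate 3 called 5 higher and 1 lower, with Cdkn1a and Mt1 added, where 12.7% and 11.7% of all genes were called. In CLP+DCA versus CLP none was called with all mice, and 3 (G6pc, Pck1 and Per1) were higher without replicate 3, where 2.18% of all genes were. In CLP versus sham with all mice, Angptl4, an inhibitor of lipoprotein lipase, had a log2 fold change of 1.25 (adjusted p = 0.0472 by edgeR). The transcription factor Cebpd had one of 2.17 (0.0232) and the metallothionein Mt2 one of 1.99 (0.0469) in the same comparison and test. G6pc, which encodes the glucose-6-phosphatase that releases glucose from the liver, was at 99.8 to 195 CPM in sham and at 44.4 to 66.8 CPM in CLP, a fold change of -1.42 in log2 units (adjusted p = 0.0365 by edgeR). Its levels in CLP+DCA were 63.9 to 167 CPM, and CLP+DCA versus CLP gave 1.39 (adjusted p = 0.168), or 1.62 (adjusted p = 0.00988) without replicate 3. The circadian gene Per1, a receptor target, was the single list gene called in CLP+DCA versus sham, where 0.0303% of all genes were called higher, at 20.2 to 32.7 CPM for sham, 23.9 to 29.9 for CLP and 43.1 to 57.6 for CLP+DCA. Its log2 fold change there was 1.10 (SE 0.15, adjusted p = 0.0348 by edgeR), and 1.06 (adjusted p = 0.0399) without replicate 3, where 0.0677% of all genes were called higher. Of the 12 fits without a single mouse, the call was kept in 7 for Cebpd (adjusted p of up to 0.0821), 4 for Per1 (up to 0.158), 3 each for Mt2 (up to 0.129) and G6pc (up to 0.113) and 2 for Angptl4 (up to 0.132), always including the fit without CLP+DCA replicate 3. The median log2 fold changes of the list were 0.21 between CLP and sham, 0.55 between CLP+DCA and sham, and 0.30 between CLP+DCA and CLP, the last pair being 0.51 and 0.30 without replicate 3.

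None of the 12 chaperones and co-chaperones that fold the receptor was called. In CLP versus sham all 12 estimates were below 0, with a median of -0.28, as were 6345 of all 13190 genes. In CLP+DCA versus CLP all 12 were above 0, with a median of 0.41, as were 6797 of all genes. Both comparisons use the same CLP mice, so that these signs are not independent. In CLP+DCA versus sham 5 were higher and 7 lower, with a median of -0.03. Bag1, a cofactor of HSP70, had -0.28 (adjusted p = 0.0869) and the HSP70 relative Hspa4 also -0.28 (adjusted p = 0.0964) in CLP versus sham by edgeR. The CLP mice lay below all sham mice for 4 of the 12, these 2 included, beside 14.2% of all genes. Without CLP+DCA replicate 3, 4 of the 12 (Bag1, Hspa4, Fkbp4 and Ppid) were called lower in CLP versus sham, beside 11.7% of all genes, and 1 (Ppid) higher in CLP+DCA versus CLP, beside 2.18%. The median in CLP+DCA versus CLP was then 0.59. With library size alone as normalization, which shifts the median of all genes to -0.16 in CLP versus sham and to 0.12 in CLP+DCA versus CLP, the chaperone medians were -0.45 and 0.52. With voom 11 of the 12 were lower in CLP versus sham. Leaving out single mice left 11 or 12 of the 12 lower there and 10 to 12 higher in CLP+DCA versus CLP.

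Steroid metabolism and transport was represented by 8 genes of 9 that passed the filter, and none was called. Their median in CLP versus sham was -1.40, with 6 genes lower and 2 higher. Serpina6, which encodes the plasma carrier of corticosterone, was at 217 to 275 CPM in sham, 0.431 to 40.4 CPM in CLP and 3.60 to 183 CPM in CLP+DCA. Its log2 fold change in CLP versus sham was -3.82 (SE 1.26, adjusted p = 0.0836 by edgeR), and without CLP+DCA replicate 3 the adjusted p was 0.0302. Srd5a1, a steroid 5α-reductase that inactivates glucocorticoids, gave -1.48 (adjusted p = 0.0686), and 0.00256 was its adjusted p without that mouse. In all, 3 of the 8 (Srd5a1, Serpina6 and Cyp3a11) were then called lower and 1 (H6pd) higher in CLP versus sham, beside 11.7% and 12.7% of all genes. In CLP+DCA versus CLP without that mouse, Srd5a1 was called higher and H6pd lower, beside 2.18% and 2.81% of all genes.

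The 14 coregulators of the receptor showed the smallest differences, with no call, no unadjusted p under 0.05 in any comparison with all 12 mice and a median of -0.02 in CLP versus sham. There was no call without CLP+DCA replicate 3 either, although Ncoa1 in CLP versus sham and Smarca4 in both other comparisons had an unadjusted p under 0.05, 1 gene of 14 in each comparison, beside 39.8%, 9.54% and 28.6% of all genes. Hdac3, a histone deacetylase that works with corepressors, gave -0.16 in CLP versus sham with all mice. Of 5 other steroid receptors 3 passed the filter and none was called. The estrogen receptor Esr1 gave -0.27 and the mineralocorticoid receptor Nr3c2, which also binds corticosterone, gave -0.41 in CLP versus sham. Of 10 immediate early genes 9 passed and none was called with all 12 mice, with Junb at 0.66 (adjusted p = 0.181) and Ier3 at 2.69 (adjusted p = 0.211) in CLP versus sham by edgeR. Both were called higher there without CLP+DCA replicate 3, at adjusted p-values of 0.0385 and 0.00859 by edgeR, beside 12.7% of all genes. In that fit Ier3 was called lower in CLP+DCA versus CLP, with a log2 fold change of -2.76 (adjusted p = 0.0353 by edgeR), beside 2.81% of all genes. Ier3 rested on 0.569 to 0.822 CPM in sham.

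**Figure D4:**
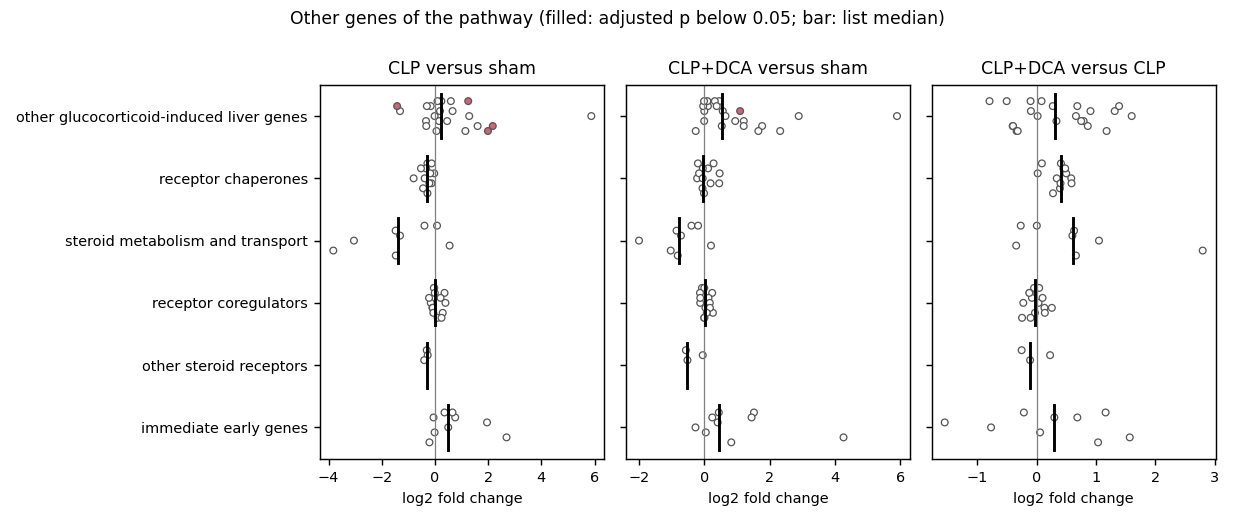
Log2 fold changes of the genes that passed the filter in 6 lists of the pathway, one point per gene, in the 3 comparisons; filled points passed an adjusted p of 0.05 in the 12-mouse fit and black bars mark list medians. The 12 chaperones lie left of 0 in CLP versus sham and right of 0 in CLP+DCA versus CLP, and coregulators stay near 0.

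Over the 12 mice, the genes whose log2 CPM followed each of the 8 most closely among 9084 genes of at least 5 CPM were listed as a description, since all points share the same libraries and the 3 groups. Hsd11b1 was followed by Rida (Pearson's r = 0.991), Gsto1 (0.989) and 2310061I04Rik (0.989). Fkbp5 was nearest to Cxcl13 (0.944), Bnip2 (0.935) and Grn (0.928), and Nr3c1 to Shprh (0.952), Fam208a (0.927) and Mkln1 (0.923). Tsc22d3 was nearest to Zfp276 (0.943), Vps9d1 (0.936) and Aprt (0.927), and Dusp1 to Txndc9 (0.928), Irf7 (0.920) and Brms1 (0.918). For Klf9 these included Mon1b (0.906) and Pros1 (0.905). Zbtb16 and Sgk1 had the loosest neighbours, 9930104L06Rik (0.885), Ints2 (0.870) and Clca3a1 (0.858) for Zbtb16, and Ddx18 (0.839), Csrnp1 (0.818) and Maip1 (0.818) for Sgk1. None of the 8 genes was among the 3 nearest neighbours of another. These lists rested in part on CLP+DCA replicate 3: over the 11 other mice, 2 of the 3 nearest genes were still among the 3 nearest for Nr3c1 and Zbtb16, 1 for Fkbp5, Sgk1 and Dusp1, and 0 for Hsd11b1, Tsc22d3 and Klf9.

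The count of DEGs among the 8 genes in CLP versus sham depended on single mice. It was 1 (Fkbp5) without sham replicate 1, 2 or 3, CLP replicate 1, 2 or 4, or CLP+DCA replicate 1, where 0.0824% to 1.11% of all genes were called. It was 2 without sham replicate 4 (0.263% of all genes) or CLP+DCA replicate 2 (1.27%), 3 without CLP+DCA replicate 4 (4.54%), 4 without CLP replicate 3 (8.80%) and 5 without CLP+DCA replicate 3 (24.4%), and the 2 fits with the highest counts of the 8 also called the largest shares of all genes. In CLP+DCA versus CLP, Dusp1 was called without sham replicate 4 (0.0150% of all genes) or CLP replicate 3 (0.0678%), and with Hsd11b1 and Tsc22d3 without CLP+DCA replicate 3. In CLP+DCA versus sham, Fkbp5 was called without CLP+DCA replicate 4, where 0.0825% of all genes were.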

How the data were processed

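Livers of 4 sham, 4 CLP and 4 CLP+DCA mice were sequenced from TruSeq RNA V2 libraries. The authors aligned reads to mm10 with STAR (2.5), ran featureCounts (Subread 1.5.0-p1) for each gene and deposited unnormalized read counts of 25611 genes with coordinates. The gene annotation and the strand setting of the counting are not given in the sources used here, so that reads of genes overlapping on opposite strands cannot be told apart. The authors report 4 mice per group, and each library was taken as 1 mouse under its label, although no label names an animal. The p-values set group differences against the spread between these libraries. Depth was 24436513 to 44266819 reads per mouse, and since the reads carry no molecular identifiers, they are not counts of molecules.

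The members and lists were chosen with earlier results of these data known. Counts were filtered with filterByExpr (minimum count 10), normalized by TMM and fitted to all 12 mice with edgeR 4.0.16 (R 4.3.3) in a robust quasi-likelihood model with group as the single term, and 3 contrasts were tested at a Benjamini-Hochberg FDR of 0.05 over 13190 genes. The standard error is the log2 fold change divided by the square root of F. The procedure was first tested on simulated counts. Named are the 8 genes, in each list the genes called or otherwise the 2 with the smallest p in CLP versus sham, Per1, and for each member the 3 genes of the highest correlation of log2 CPM (prior count 2). Of the genes named by this rule, 2 are not reported here. Genes named for a result without CLP+DCA replicate 3 alone were chosen after their values were seen. Exon lengths are unions over GENCODE M21 basic transcripts, and promoters come from RefSeq. Alternatives were DESeq2 1.42.0, voom with limma 3.58.1, fits of the 8 mice compared, other normalizations, filters and edgeR variants, the replicate number as a block, an FDR of 0.10 and leaving out each mouse. Counts of groups that do not overlap, levels per kilobase and nearest genes without CLP+DCA replicate 3 were added after seeing the data.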

Additional observations from a re-analysis of the deposited data

Results flagged for a closer look

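In each of the 24 combinations of gene and group, the highest or the lowest mouse was compared with the other 3 by Dixon's ratio of its gap to the range. By chance about 1 in 20 such groups is expected to be marked, and 3 were. Nr3c1 in sham replicate 3 was the lowest of its group at 76.8 CPM, with the next mouse at 87.7 CPM. Hsd11b1 in CLP+DCA replicate 3 was the lowest at 64.9 CPM, while the other 3 mice of the group had 283 to 308 CPM, and this mouse also stood apart across all genes. Zbtb16 in CLP replicate 2 was the highest at 52.4 CPM, with the other 3 CLP mice at 33.2 to 33.4 CPM.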

How the results depend on the processing

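In CLP versus sham, where 3 of the 8 genes and 456 of all genes were called, DESeq2 called 5 of the 8 and 1894 of all on 12 mice, and 6 and 3428 on the 8 mice compared. EdgeR on those 8 mice called 6 and 2473, voom 5 and 3417, and an FDR of 0.10 gave 5 and 2183. Without the filter 234 genes were called in all. Leaving out single mice gave 1 to 5 of the 8, and 11 (without sham replicate 3) to 3238 of all genes (without CLP+DCA replicate 3).

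In CLP+DCA versus sham, where 0 of the 8 and 5 of all genes were called, DESeq2 called 2 and 247 on 12 mice and 2 and 169 on 8, voom 2 and 473, and an FDR of 0.10 gave 1 and 19. EdgeR on 8 mice called 0 genes (1557 with an unadjusted p under 0.05), and library size alone gave 3. Single mice moved the counts between 0 and 1 of the 8, and 1 and 11 of all.

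In CLP+DCA versus CLP, where 0 of the 8 and 1 gene were called, DESeq2 called 1 and 136 on 12 mice and 1 and 80 on 8, voom 3 and 1287, the filter of 1 CPM 1 and 3, and an FDR of 0.10 1 and 8. EdgeR on 8 mice called 0 genes (905 with an unadjusted p under 0.05). Single mice moved the counts between 0 and 3 of the 8, and 0 and 663 of all. Without CLP+DCA replicate 3, an alternative chosen after seeing the data, CLP+DCA did not overlap sham for 5 of the 8 genes and CLP for 5, against 3 each with all mice. The causes were not tested.

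Fold changes kept their direction in all settings except 6 near 0. Sgk1 in CLP+DCA versus sham was -0.031 with voom and from -0.078 (without sham replicate 3) to 0.35 (without sham replicate 1) over the fits without a single mouse, at -0.038 without CLP+DCA replicate 3. Nr3c1 in CLP+DCA versus CLP was -0.024 with voom and -0.0026 (without CLP+DCA replicate 4) to 0.16 without single mice. Zbtb16 in that comparison was -0.11 (without CLP+DCA replicate 1) to 0.26. With library size alone, the calls in CLP versus sham split into 154 higher and 216 lower, against 267 and 189.

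Mice with the same replicate number did not consistently deviate together (correlations of -0.0544 to 0.0898, -0.160 to 0.0938 and -0.459 to 0.550 in the 3 comparisons). The highest value, 0.550, was for replicate 1 in CLP+DCA versus CLP, and the lowest, -0.459, for replicate 2 there. Of the 12 mice, 1 was closest to the mouse of its own number in both other groups. With the number as a replicate block, 2, 0 and 1 of the 8 genes and 78, 4 and 3 of all genes were called in the order above, with Zbtb16 lost in CLP versus sham and Dusp1 gained in CLP+DCA versus CLP.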
